A study of Mus musculus with 7 samples.

Results

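Public CDR3s built by different rearrangements are TCRβ CDR3 amino acid sequences that several mice carried but that no pair of mice encoded with the same nucleotide rearrangement. They were found among the in-frame TCRβ rearrangements of CD8 tumor-infiltrating lymphocytes (TILs) from 7 mice. A CDR3 was taken as a member when it was present in 2 or more mice and none of its rearrangements was present in more than 1 mouse. This gave 128 CDR3s with 311 rearrangements, out of 5675 CDR3s and 6907 rearrangements summed over the mice. The members were thus selected on the measured sequences, and that they were shared as protein and not as DNA is the definition and not a result. Of the 128, 115 were in 2 mice, 10 in 3, 2 in 4 and 1 in all 7. Just outside the definition lay 5315 CDR3s of 1 mouse and 212 public CDR3s of which exactly 1 rearrangement was shared between mice. All public CDR3s with a shared rearrangement numbered 232.

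All mice were C57BL/6, 6 to 8 weeks old, and carried subcutaneous tumors of the mouse squamous cell carcinoma line A223. All received anti-PD-L1 antibody, 200 µg in each of 3 injections at a 2-day interval, and tumors were collected on day 18. Responders (R, 3 mice, 1R to 3R) had a relative change in tumor volume below 0, and non-responders (NR, 4 mice, 4NR to 7NR) one above 1.5. No untreated tumor was analysed here, the tumors came from a single line, and each mouse gave 1 library of genomic DNA from purified CD8 T cells, so the CD8 label cannot be checked against marker genes in these files. Clone size is given in templates, the provider's estimate of the molecules that carried a rearrangement. Productive templates ranged from 2332 in 6NR to 15182 in 7NR, and in-frame rearrangements from 333 to 1409 per mouse.

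A TCRβ chain is assembled when a V, a D and a J gene segment are cut, trimmed and joined in a developing T cell. Terminal deoxynucleotidyl transferase adds untemplated bases, called N insertions, at the V-D and D-J junctions. Because most amino acids have several codons, different joins can encode the same CDR3, which is known as convergent recombination, and CDR3s found in many individuals are called public. The CDR3 runs from a conserved cysteine of the V segment to a phenylalanine of the J segment and is the part of the chain that lies closest to the presented peptide.

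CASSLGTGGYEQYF was the most widely shared member, with 11 rearrangements and 68 templates over the 7 mice. Its 11 CDR3 sequences are shown because they hold the common ways in which members differed: another V gene, another D gene and another base at a junction. Sequences run 5′ to 3′ on the coding strand from the cysteine codon, with capitals at the positions that vary within the set. The last codon of the CDR3, 3 bases, lay outside the 87 bases that were sequenced.
1R, TCRBV12-01, 2 templates: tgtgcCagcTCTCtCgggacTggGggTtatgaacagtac
2R, TCRBV12-01, 3 templates: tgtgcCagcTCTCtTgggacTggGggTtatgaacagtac
2R, TCRBV12-01, 32 templates: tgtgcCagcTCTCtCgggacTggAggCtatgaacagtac
3R, TCRBV12-01, 16 templates: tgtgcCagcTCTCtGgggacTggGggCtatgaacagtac
3R, TCRBV12-02, 1 template: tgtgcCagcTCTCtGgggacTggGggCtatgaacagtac
4NR, TCRBV12-02, 2 templates: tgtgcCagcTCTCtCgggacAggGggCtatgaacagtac
5NR, TCRBV24-01, 1 template: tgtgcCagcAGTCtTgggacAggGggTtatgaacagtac
5NR, TCRBV14-01, 3 templates: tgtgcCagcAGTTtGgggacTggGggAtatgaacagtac
6NR, TCRBV04-01, 3 templates: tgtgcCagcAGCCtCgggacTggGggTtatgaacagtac
7NR, TCRBV12-01, 2 templates: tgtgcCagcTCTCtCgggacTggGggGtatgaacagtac
7NR, TCRBV16-01, 3 templates: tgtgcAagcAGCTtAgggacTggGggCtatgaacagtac
The 11 rearrangements used 6 V genes, both D genes and TCRBJ02-07 alone, and carried 0 to 4 N insertions. They varied at 9 of the 39 bases. The 1-template TCRBV12-02 rearrangement of 3R had the same CDR3 bases as the 16-template TCRBV12-01 rearrangement of that mouse and differed only upstream of it.

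The 2 members in 4 mice each differed from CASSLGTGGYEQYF by 1 residue, L5S and L5T, with positions counted from 1 at the cysteine and the residue of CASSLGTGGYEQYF written first, and both also used TCRBJ02-07. The 6 rearrangements of the L5S form varied at 5 of 39 bases and are shown because the V gene changed while the D and J parts stayed close.
1R, TCRBV13-01, 3 templates: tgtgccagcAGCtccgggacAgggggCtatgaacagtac
1R, TCRBV19-01, 7 templates: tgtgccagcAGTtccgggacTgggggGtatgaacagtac
4NR, TCRBV19-01, 7 templates: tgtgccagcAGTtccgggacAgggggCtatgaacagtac
4NR, TCRBV19-01, 2 templates: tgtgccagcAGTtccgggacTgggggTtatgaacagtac
5NR, TCRBV19-01, 7 templates: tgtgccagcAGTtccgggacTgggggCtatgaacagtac
7NR, TCRBV12-01, 27 templates: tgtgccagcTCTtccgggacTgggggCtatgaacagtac
The L5T form had 10 rearrangements, all with TCRBV19-01, that varied at only 3 of 39 bases. The largest of 1R, 3R, 5NR and 7NR are shown as a case in which mice with the same V and J gene differed at the junctions and in the D gene. The one of 7NR used TCRBD01-01 and the others TCRBD02-01.
1R, TCRBV19-01, 3 templates: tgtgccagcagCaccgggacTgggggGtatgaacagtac
3R, TCRBV19-01, 10 templates: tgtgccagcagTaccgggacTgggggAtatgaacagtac
5NR, TCRBV19-01, 10 templates: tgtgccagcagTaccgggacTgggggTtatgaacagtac
7NR, TCRBV19-01, 4 templates: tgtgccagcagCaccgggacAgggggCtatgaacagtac
In 3R this CDR3 had 4 rearrangements with 1, 10, 3 and 3 templates.

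The most abundant member and the most different ones mark the range. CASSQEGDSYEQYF, with TCRBV02-01 and TCRBJ02-07, differed by a single base between 5NR, where it held 87 templates, and 1R, where it held 2.
1R, TCRBV02-01, 2 templates: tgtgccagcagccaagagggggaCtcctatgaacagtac
5NR, TCRBV02-01, 87 templates: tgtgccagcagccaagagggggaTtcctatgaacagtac
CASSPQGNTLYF and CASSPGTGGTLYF were the only members that used 2 J genes, and each differed by 8 bases, as did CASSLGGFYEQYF.
1R, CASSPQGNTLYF, TCRBV26-01 and TCRBJ01-03: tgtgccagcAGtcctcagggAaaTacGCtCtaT
4NR, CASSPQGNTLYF, TCRBV12-01 and TCRBJ02-04: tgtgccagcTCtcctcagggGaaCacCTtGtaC
3R, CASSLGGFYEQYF, TCRBV16-01: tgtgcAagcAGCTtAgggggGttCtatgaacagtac
7NR, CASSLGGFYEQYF, TCRBV12-02: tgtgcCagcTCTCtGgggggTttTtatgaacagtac
At the other end, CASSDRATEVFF had identical CDR3 bases in 2R and 4NR and was a member only because TCRBV13-01 and TCRBV13-03 differed upstream, at 14 of the 87 bases.

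To describe how the rearrangements of a member differed, the pair from different mice with the fewest differing CDR3 bases was taken for each of the 128 CDR3s. The median was 2 bases. The closest pair differed by 1 base in 41 CDR3s, by 2 in 36 and by 5 or more in 17, up to 8. In 68 members no V gene was common to any pair of mice, and 79 used more than 1 named V gene in all, while 126 used a single J gene. The closest pair had the same V gene in 59 members, with a median of 1 differing base, and different V genes in 69, with a median of 3. Of 89 closest pairs with a D gene resolved on both sides, 72 had the same D gene. Of the 327 differing bases, 74.3% were at the third position of a codon, 15.9% at the first and 9.79% at the second. A high share at the third position follows from comparing sequences that encode the same residues.

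The origin of the differing bases followed from whether the V gene was shared. With the same V gene, 70.7% of 99 differing bases were an N insertion in at least 1 of the rearrangements, 18.2% lay in the D segment of both, 11.1% came from different segments and none lay in V or J of both. That none did is fixed by the comparison, as these pairs also had the same J gene. With different V genes, 57.0% of 228 differing bases lay in the V part of both and 25.4% were an N insertion in at least 1. Rearrangements of same-V members carried a mean of 2.14 N insertions and those of different-V members 1.83, and 44.1% of 161 against 56.0% of 150 had a single template. These values describe the members and were not tested, since the split uses the compared sequences.

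**Figure D1:**
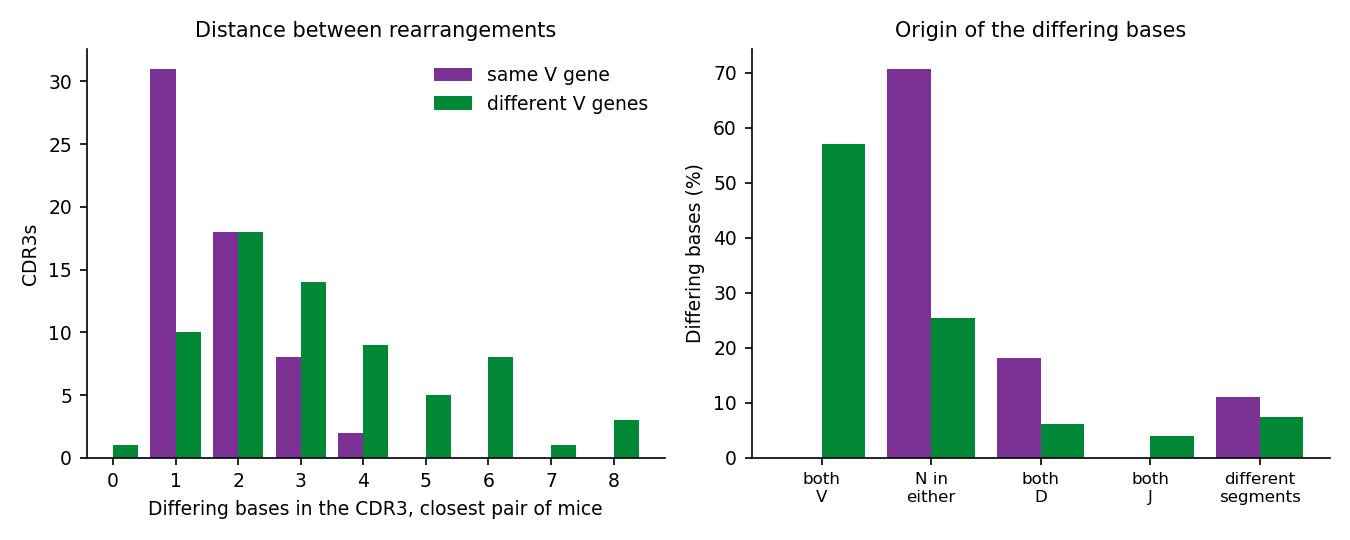
Left, number of public CDR3s by the number of CDR3 bases that differed between the closest rearrangements of different mice, for 59 CDR3s with the same V gene (purple) and 69 with different V genes (green). Right, percent of the differing bases (99 and 228) by where they lay, where the same-V bars reach 70.7% in N insertions and the different-V bars 57.0% in V.

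A difference of 1 base can also arise from a sequencing or PCR error in an abundant clone. Over the full 87 bases, 31 members had rearrangements of different mice that were 1 base apart. At 1 base and at least 10 times the templates, 7 of the 311 member rearrangements (2.25%) lay next to a rearrangement of another mouse and 1 next to a rearrangement of the same mouse. The same held for 9 of 5597 rearrangements of CDR3s of 1 mouse (0.161%, next to another mouse) and for 61 of 999 with a shared rearrangement (6.11%). By definition a public CDR3 has a rearrangement of the same residues in another mouse, which a CDR3 of 1 mouse lacks. The shares next to another mouse therefore do not measure sequencing or PCR error. The part of such errors in the membership was not tested, and the comparisons were therefore repeated without the 31 members.

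The member CDR3s carried few N insertions. N insertions and length are read from the same sequences that decided membership. Their differences describe the selected set and are not independent of the rule. The mean number per rearrangement was 1.82 in 1R, 2.06 in 2R and 2.35 in 3R, and it was 1.92, 1.88, 2.13 and 1.97 in the NR mice from 4NR to 7NR. In CDR3s of 1 mouse the R mice had 3.53, 3.55 and 3.54 and the NR mice 3.67, 3.65, 3.89 and 3.42, in the same order. Every mouse was lower for the members and the classes did not overlap. The means were 2.02 ± 0.179 against 3.61 ± 0.148 (SD, n = 7 mice), a difference of -1.59 ± 0.219 (two-sided exact sign-flip permutation test, p = 0.0156, the smallest that 7 mice allow, adjusted p = 0.0273 over 14 measures). The difference lay at both junctions, -0.73 between V and D and -0.86 between D and J (adjusted p = 0.0273 by the same exact test for each). Within CDR3s of equal length it was -1.32, and without members 1 base apart -1.51.

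Rearrangements with no N insertion at all are built entirely from germline-encoded bases. Their share was 19.0% ± 6.28 of the member rearrangements and 8.83% ± 2.43 of those of CDR3s of 1 mouse, and it was higher for members in 7 of 7 mice (exact sign-flip permutation test, adjusted p = 0.0273). It ranged from 11.6% in 3R to 29.0% in 1R for members and from 3.68% in 6NR to 11.1% in 2R for CDR3s of 1 mouse. The higher share did not hold its call throughout: the unadjusted exact sign-flip permutation p was above 0.05 with the V and J gene required to match (difference 4.73 percentage points), without members 1 base apart (8.41), with each member counted once (11.3), weighted by templates (2.65) and without 2R or 7NR (9.76 and 8.01). At the other end of the distribution, 2 of 311 member rearrangements (0.643%) had 6 or more N insertions, with a highest number of 7, against 1097 of 5597 (19.6%) and a highest number of 29. J ends had lost a mean of 2.38 ± 0.277 bases in members against 2.82 ± 0.128 in CDR3s of 1 mouse, lower in 7 of 7 mice (exact sign-flip permutation test, adjusted p = 0.0273). Among rearrangements of at least 2 templates that difference was 0.0186, the other way (exact p = 0.891), and weighted by templates it was -0.42 (exact p = 0.109). V ends lost 2.35 ± 0.270 against 2.76 ± 0.179 bases (lower in 6 of 7 mice, adjusted p = 0.0438 by the same exact test). The V difference, -0.41, was not past 0.05 without members 1 base apart (-0.26, unadjusted exact p = 0.156), at 2 or more templates (-0.21), with each member counted once (-0.59), weighted (-0.52) or without 2R, 3R, 5NR or 6NR (-0.34 to -0.25). Against the shared class, which had lost 2.13 bases from V and 2.58 from J, neither difference passed (0.22 and -0.20, exact sign-flip permutation test, adjusted p = 0.306 and 0.456).

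**Figure D2:**
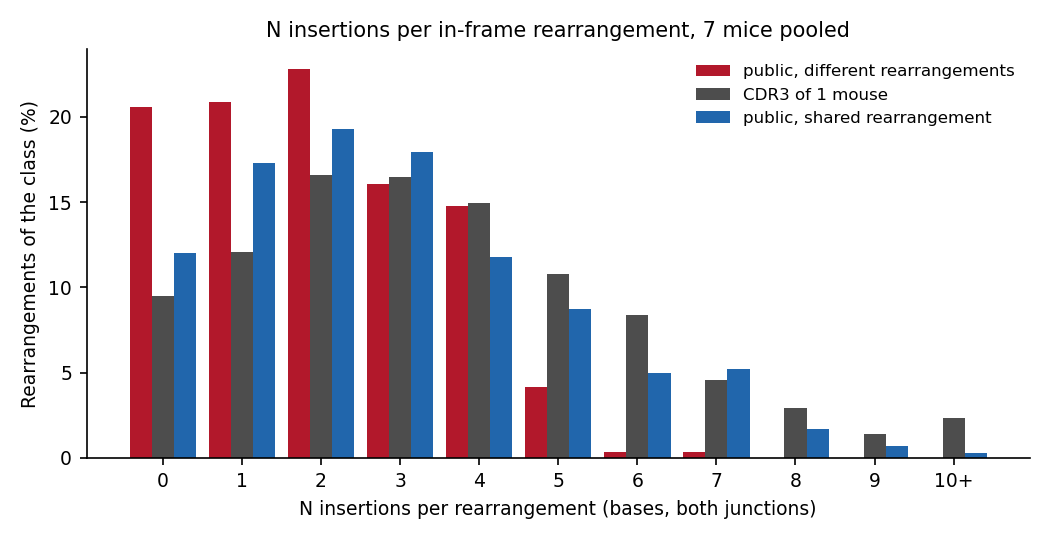
Percent of in-frame rearrangements by number of N insertions at both junctions, pooled over 7 mice, for 311 rearrangements of members (red), 5597 of CDR3s of 1 mouse (grey) and 999 of public CDR3s with a shared rearrangement (blue). The red bars end at 7 insertions and hold 20.6% at 0, where the grey bar holds 9.49%.

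Members of different mice share their CDR3s by definition, so the 7 within-mouse differences are not independent, and these p-values are too small by an amount that was not measured. Each member was therefore also counted only in the mouse where it was most frequent, which left 149 rearrangements and a difference in N insertions of -1.61.

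Public CDR3s with a shared rearrangement are the class most like the members. What separates them is whether a nucleotide rearrangement, with its N bases, recurred between mice. Comparisons with this class, also those of length, trimming and clone size, are therefore not independent of the rule. They had 2.79 ± 0.490 N insertions, and members had fewer in 7 of 7 mice, by 0.772 ± 0.421 (members minus shared class -0.772, exact sign-flip permutation test, adjusted p = 0.0313). In 1R and 4NR the gap was smallest, 1.82 against 2.06 and 1.92 against 2.12. Left out in turn, 1R and 4NR each ended this call (unadjusted exact p = 0.125 and 0.0625, differences -0.70 and -0.75). Weighted by templates the difference was 0.09, with the members higher (exact p = 0.578). Rearrangements without N insertions were 12.3% ± 1.31 of the shared class, below the members in 7 of 7 mice (exact sign-flip permutation test, adjusted p = 0.0313).

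CDR3s of members were shorter. Their mean length was 13.6 ± 0.122 residues against 14.0 ± 0.0518 for CDR3s of 1 mouse, -0.33 ± 0.113 and lower in 7 of 7 mice (exact sign-flip permutation test, adjusted p = 0.0273). Per mouse the members ranged from 13.5 in 4NR to 13.8 in 3R and CDR3s of 1 mouse from 13.9 in 7NR to 14.1 in 5NR, without overlap. The difference was smaller, -0.23, and not past 0.05 among rearrangements of at least 2 templates (exact p = 0.0625). Member lengths ran from 9 to 16 residues, with 43.7% at 14, and those of CDR3s of 1 mouse from 8 to 20. Against the shared class the difference was -0.43 ± 0.215, again lower in 7 of 7 mice (exact sign-flip permutation test, adjusted p = 0.0313).

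Most members were small clones, but not the smallest. The 311 member rearrangements held 937 of 66557 templates (1.41%), while the 999 of the shared class held 71.5%. In 155 of them a single template was seen. The share of single-template rearrangements was 37.1%, 44.4% and 48.8% for the R mice and 64.1%, 51.0%, 62.5% and 53.0% for the NR mice, each in numerical order. In CDR3s of 1 mouse it was 58.9%, 58.4% and 63.5% in R and 60.7%, 60.4%, 61.1% and 62.0% in NR. All R mice and 5NR and 7NR were lower for members, and 4NR and 6NR were higher. The mean difference of -9.13 ± 8.99 percentage points did not pass the test (exact sign-flip permutation test, p = 0.0625, adjusted p = 0.0729). Mean log2 templates were 0.82 ± 0.23 against 0.60 ± 0.07, higher for members in 6 of 7 mice (adjusted p = 0.0438 by the same exact test). This call ended without members 1 base apart (difference 0.16, exact p = 0.109), and without 2R, 3R, 4NR or 5NR (0.21 to 0.32, exact p = 0.0625 to 0.0938). Against the shared class members were smaller in 7 of 7 mice, by -0.97 ± 0.22 on the log2 scale (exact sign-flip permutation test, adjusted p = 0.0313). Clone size also went with J gene use. In CDR3s of 1 mouse the J gene TCRBJ02-07 made up 20.9% of rearrangements. TCRBJ02-07 made up 39.3% when the classes were formed anew from rearrangements of at least 2 templates, so these shares are not of the same set. Among all 311 member rearrangements TCRBJ02-07 made up 36.0%, and clone size was not compared within a J gene.

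**Figure D3:**
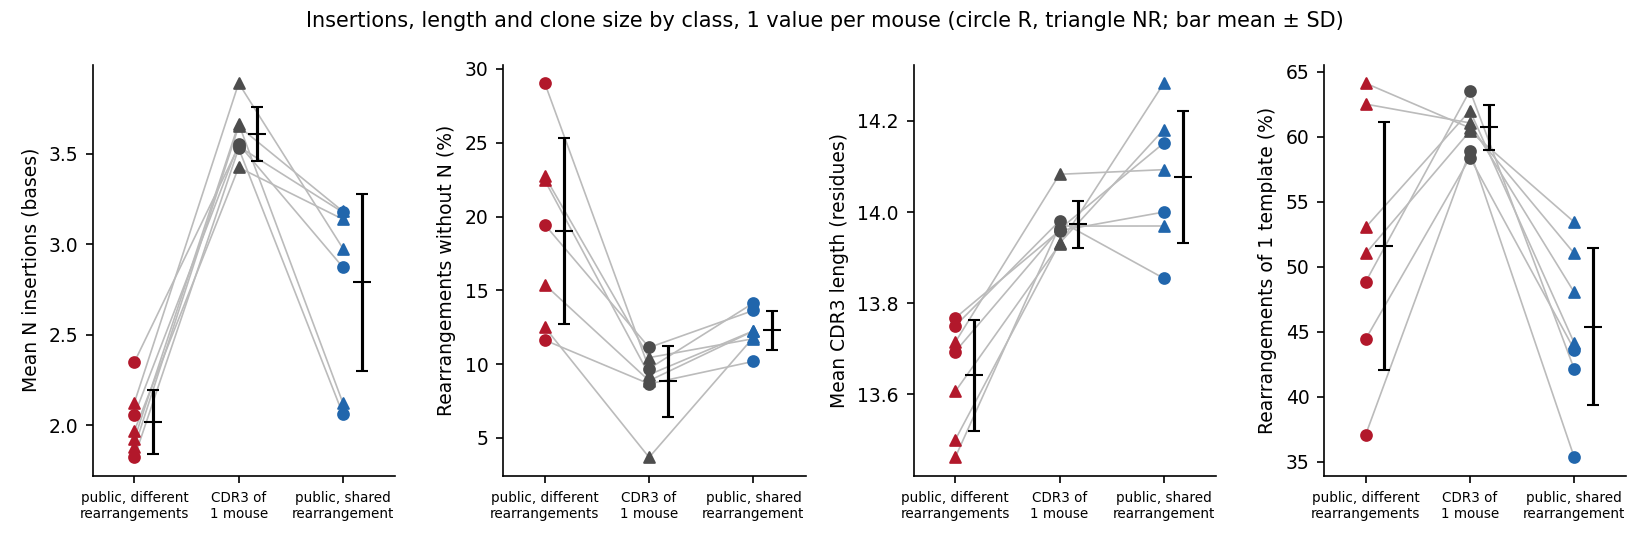
Mean N insertions, percent of rearrangements without N insertions, mean CDR3 length and percent of single-template rearrangements, 1 value per mouse (circles R, triangles NR, lines join a mouse, bars mean ± SD over 7 mice; axes do not start at 0). Members (red) lie below CDR3s of 1 mouse (grey) in all 7 mice for N insertions, 2.02 against 3.61 on average, and for length, while 4NR and 6NR lie above for single-template share.

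Of the 311 member rearrangements, 15 exceeded 0.1% of the productive templates of their mouse. The same was true of 146 of 5597 rearrangements of CDR3s of 1 mouse and 232 of 999 of the shared class. The largest member was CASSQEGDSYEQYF at 0.741% of 5NR and 0.0145% of 1R. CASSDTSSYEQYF, with TCRBV13-03 and TCRBJ02-07, held 68 templates (0.688%) in 3R and 3 templates (0.129%) in 6NR. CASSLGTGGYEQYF held 2, 35 and 17 templates in the R mice and 2, 4, 3 and 5 in the NR mice, highest in 2R at 0.409%. The L5S form held 27 templates in 7NR, 10 in 1R, 9 in 4NR and 7 in 5NR, and the L5T form 17 in 3R, 3 in 1R, 14 in 5NR and 5 in 7NR. The share of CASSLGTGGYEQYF thus varied from 0.0145% in 1R to 0.409% in 2R. The other members among the 10 with the highest frequency were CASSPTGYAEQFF (0.152% of 3R), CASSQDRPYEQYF (0.129% of 6NR), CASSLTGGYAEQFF and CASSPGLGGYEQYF (each 0.119% of 4NR) and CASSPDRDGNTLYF (0.109% of 1R). In 6NR, the shallowest library, 0.129% was 3 templates.

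**Figure D4:**
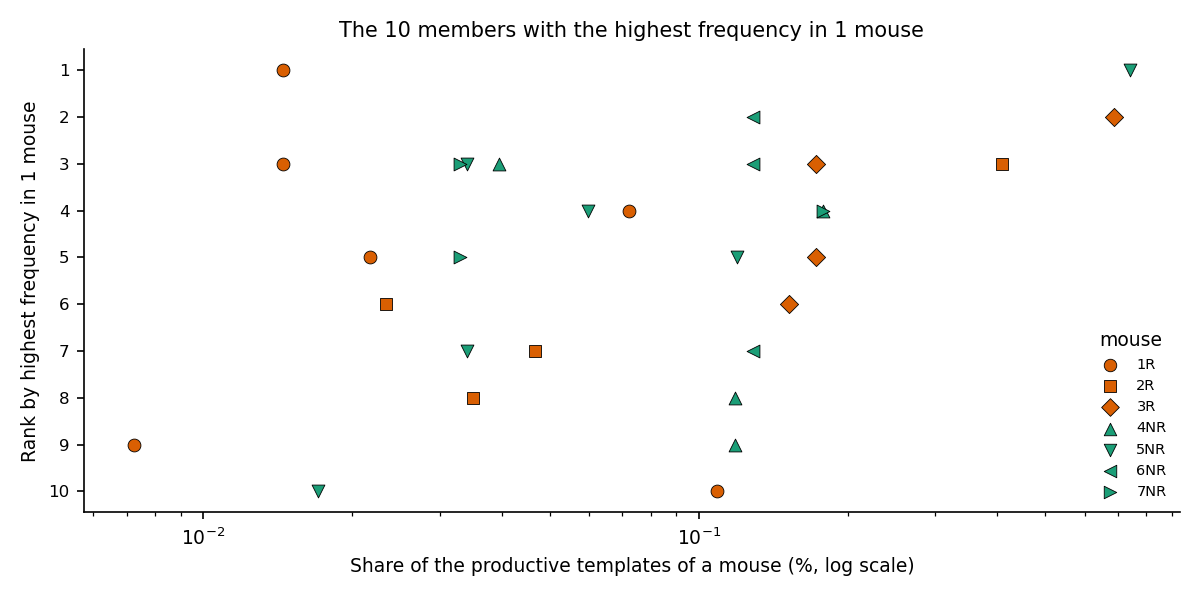
Share of the productive templates of each mouse (log axis) taken by the 10 members with the highest frequency in any mouse, ranked from 1 (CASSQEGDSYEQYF) to 10 (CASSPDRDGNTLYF) in the order of the text, with R mice in orange and NR mice in green and no symbol where a CDR3 was not seen. Rank 3, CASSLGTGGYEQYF, has 7 symbols, between 0.0145% and 0.409%.

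V gene use differed between members and CDR3s of 1 mouse for 5 of 24 V genes tested (20.8%), 1 higher (4.17%) and 4 lower (16.7%) in members (edgeR quasi-likelihood test on numbers of rearrangements with the mouse as a block, Benjamini-Hochberg adjusted). TCRBV12-01, the most used V gene with 44 of 311 rearrangements, made up 14.1% ± 2.43 of the members and 6.53% ± 0.717 of CDR3s of 1 mouse (log2 fold change 0.86, SE 0.31, edgeR adjusted p = 0.0326). Its shares ranged from 11.3% to 18.4% and from 5.17% to 7.35% over the mice and did not overlap. TCRBV13-02 was lower, at 4.71% ± 2.40 against 11% ± 0.855, in 7 of 7 mice (log2 fold change -1.51, SE 0.40, edgeR adjusted p = 0.00195). TCRBV01-01 provided 3 of 311 rearrangements (0.965%) against 315 of 5597 (5.63%, log2 fold change -2.71, edgeR adjusted p = 0.00184). TCRBV31-01 provided 3 against 187 (0.965% and 3.34%, log2 fold change -2.004, edgeR adjusted p = 0.0326). TCRBV20-01 provided none of the 311 against 131 of 5597, at least 2.43-fold lower when 3 counts are allowed for the 0 over all mice (edgeR adjusted p = 0.00195). Leaving out a mouse ended the call for TCRBV12-01 (1R, 2R, 3R, 5NR or 7NR, log2 fold change 0.45 to 0.91), TCRBV13-02 (3R or 5NR, -0.71 and -0.84), TCRBV31-01 (1R, 3R, 4NR, 5NR or 7NR, -2.02 to -1.56) and TCRBV20-01 (5NR, edgeR adjusted p = 0.0594).

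The segments that were lower start the CDR3 with other residues than CASS. Among CDR3s of 1 mouse, 95.6% of TCRBV01-01 rearrangements began with CTCS, 94.4% of those with TCRBV13-02 with CASG, 97.7% of those with TCRBV20-01 with CGA and 72.7% of those with TCRBV31-01 with CAWS, while 98.1% of those with TCRBV12-01 began with CASS. Of the member CDR3s, 120 of 128 began with CASS (93.8%), 6 with CASG, 1 with CTCS, 1 with CAWS and none with CGA. Per mouse, 92.4% ± 4.68 of member rearrangements and 69.1% ± 1.21 of those of CDR3s of 1 mouse began with CASS, higher in 7 of 7 mice (exact sign-flip permutation test, adjusted p = 0.0273). CASS is the start that several V genes encode alike. In the shared class the share was 80.1% ± 7.77, also below the members in 7 of 7 mice (exact sign-flip permutation test, adjusted p = 0.0313). A member built with different V genes needs a start that all of them can give, so the definition itself favours CASS. All 69 members whose closest pair had different V genes began with CASS, against 51 of 59 with the same V gene. The CASS excess and the lower use of V genes with other starts are therefore not independent of the rule.

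Use of the other frequent V genes was spread widely, but shares per mouse rest on few member rearrangements. These numbered from 16 in 6NR to 66 in 7NR, against 190 in 6NR to 1248 in 1R for CDR3s of 1 mouse. Counting error alone therefore spreads the member shares more. TCRBV19-01 gave 41 member rearrangements, from 2.78% to 24.5% of a mouse's members, against 7.77% to 9.52% in CDR3s of 1 mouse (log2 fold change 0.42, edgeR adjusted p = 0.423). TCRBV12-02 and TCRBV16-01 gave 24 each, and TCRBV16-01 reached 25.6% in 1 mouse. Neither passed the test (edgeR adjusted p = 0.539 and 0.728).

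J gene use differed for 4 of 12 J genes tested (33.3%), 1 higher (8.33%) and 3 lower (25%) in members. TCRBJ02-07, which encodes the YEQYF end, made up 34.5% ± 8.06 of the members and 21.1% ± 1.17 of CDR3s of 1 mouse (log2 fold change 0.76, SE 0.19, edgeR adjusted p = 0.00122). It was higher in 7 of 7 mice, with shares of 23.1% to 44.2% against 19.0% to 22.6%. TCRBJ01-05 occurred in none of the 311 member rearrangements and in 172 of 5597, at least 3.19-fold lower with the same allowance (edgeR adjusted p = 0.00122). TCRBJ01-04 gave 7 of 311 (2.25%) against 6.36% and TCRBJ01-06 gave 2 (0.643%) against 3.13% (log2 fold change -1.45 and -2.21, edgeR adjusted p = 0.0208 and 0.0250). Both were still lower but no longer called when a mouse was left out, TCRBJ01-04 without 1R, 2R or 4NR (-1.43, -1.13 and -0.99) and TCRBJ01-06 without 1R, 3R, 5NR or 6NR (-2.01 to -1.71). TCRBJ02-01 and TCRBJ01-01, the next most used with 39 and 34 rearrangements, did not pass (edgeR adjusted p = 0.810 and 0.549). The J cluster 2 genes together made up 74.1% ± 7.75 against 67.7% ± 1.89 (exact sign-flip permutation test, p = 0.0781, adjusted p = 0.0841).

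The calls for TCRBJ02-07 and TCRBV12-01 depended on how members were counted. Without members 1 base apart, TCRBJ02-07 had a log2 fold change of 0.41 and pooled shares of 31.7% against 20.9% (edgeR adjusted p = 0.0873), and TCRBV12-01 one of 0.46 and shares of 12.8% against 6.59% (edgeR adjusted p = 0.465). With each member counted once, the values were 0.20 and 32.9% against 20.9% for TCRBJ02-07 (edgeR adjusted p = 0.756), and 0.44 and 14.1% against 6.59% for TCRBV12-01 (edgeR adjusted p = 0.495). Among rearrangements of at least 2 templates the fitted log2 fold changes were -0.02 and -0.08, although the pooled shares were still 63.9% against 39.3% for TCRBJ02-07 and 13.9% against 7.73% for TCRBV12-01. Fitted values are relative to the TMM scaling, and in this setting no fit without TMM was run. They therefore do not show that members of this setting used either gene less, or equally often. The lower use of TCRBV01-01 and TCRBJ01-05 was called in all 14 alternative fits. An exact sign-flip permutation test of the shares called 0 V and 0 J genes after adjustment, with 6 and 5 at an unadjusted p under 0.05, and DESeq2 called 5 and 2.

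The shared class was set beside these shares without a test. TCRBJ02-07 made up 30.2% ± 5.99 of its rearrangements (SD, n = 7 mice), TCRBV12-01 7.82% ± 2.25 and TCRBV13-02 5.97% ± 0.7101. TCRBV01-01 made up 6.22% ± 4.12, TCRBV31-01 1.53% ± 1.67 and TCRBV20-01 1.11% ± 0.988. Of the J genes that were lower in members, TCRBJ01-04 made up 7.13% ± 3.56, TCRBJ01-05 2.53% ± 1.11 and TCRBJ01-06 1.11% ± 0.789 of the shared class.

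**Figure D5:**
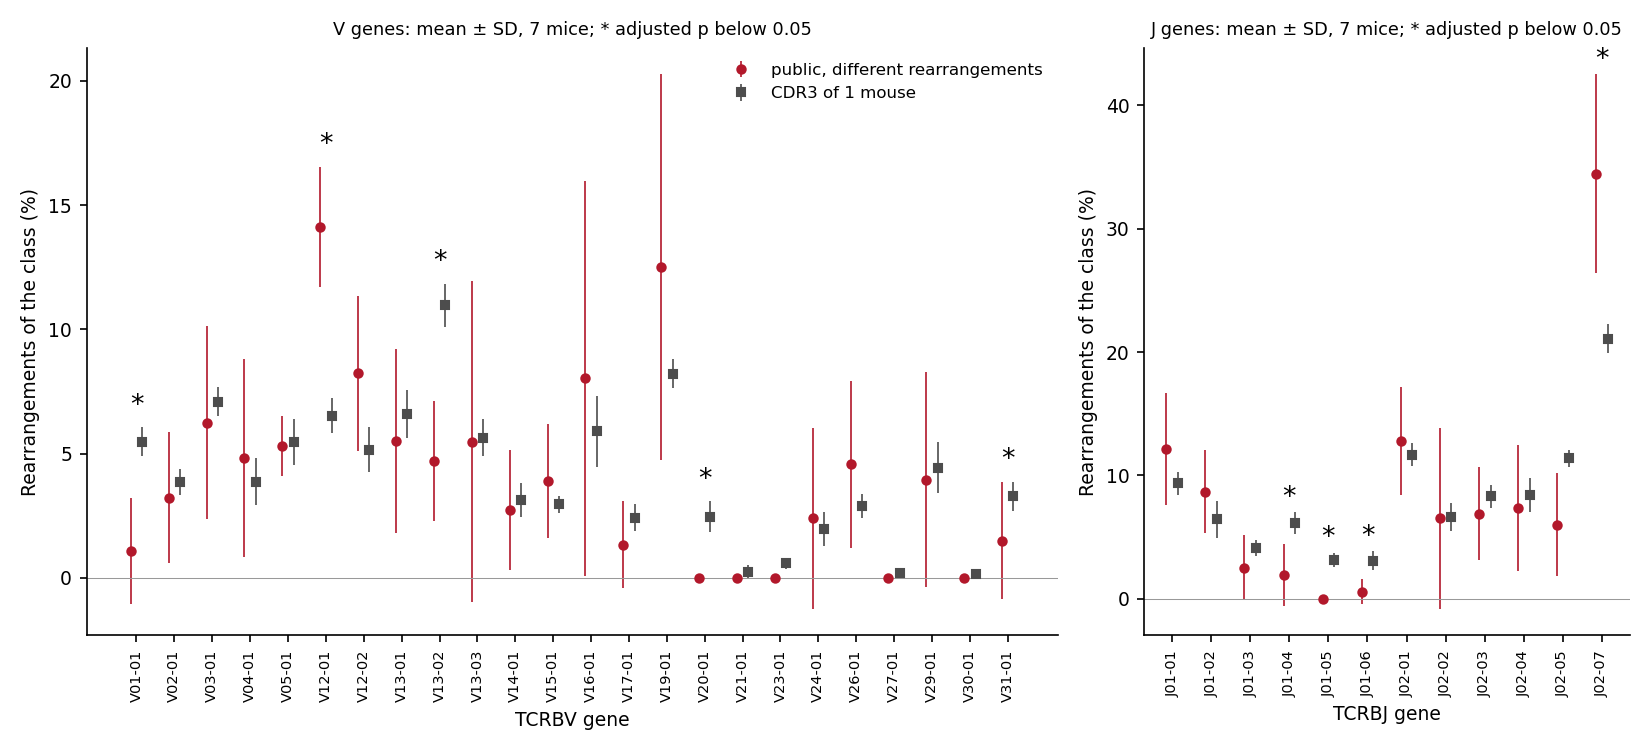
Share of rearrangements by V gene (left, 24 tested) and J gene (right, 12 tested), mean ± SD over 7 mice, for members (red circles) and CDR3s of 1 mouse (grey squares), with an asterisk where the edgeR adjusted p was below 0.05. TCRBV12-01 at 14.1% and TCRBJ02-07 at 34.5% stand above the grey squares, and TCRBV20-01 and TCRBJ01-05 lie at 0 in members.

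Of the V and J pairs, TCRBV19-01 with TCRBJ02-07 was the most frequent among members, with 27 of 311 rearrangements (8.68%) against 96 of 5597 (1.72%). The L5T form of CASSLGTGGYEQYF alone provided 10 of the 27. The D gene also differed. TCRBD01-01 made up 43.3% ± 7.44 of the members with a resolved D gene and 53.6% ± 3.11 of CDR3s of 1 mouse, lower in 7 of 7 mice, by -10.3 ± 6.21 percentage points (exact sign-flip permutation test, adjusted p = 0.0273). In counts, 102 member rearrangements had TCRBD01-01, 146 TCRBD02-01, 53 an ambiguous D gene and 10 were scored as joined without D. The call for TCRBD01-01 ended without members 1 base apart (-7.49 percentage points, exact p = 0.0938) and without 5NR (-10.6, exact p = 0.0625). The D-derived motif GTG was in 12 member CDR3s (9.38%) and in 6.42% of CDR3s of 1 mouse, DWG in 8.59% and 6.15%, GQG in 3.13% and 3.52% and DRG in 1.56% and 2.97%, given as descriptions.

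A member could also have several rearrangements within a mouse. That was so for 24 of 128 members (18.8%), for 4.12% of CDR3s of 1 mouse and for 36.2% of the shared class, and the L5T form of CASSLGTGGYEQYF was encoded in 4 ways in 3R. A CDR3 was counted when any of its mice held several rearrangements of it. Rearrangements that differed only upstream of the CDR3 were included, so the CDR3 bases were not always different. An example is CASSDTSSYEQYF in 3R, with 67 and 1 templates and the same CDR3 bases. Public CDR3s thus had more mice in which to be counted than CDR3s of 1 mouse, and these shares are not like measures.

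The study contrasted R with NR, and 75 members were in mice of both groups, 19 in R mice only and 34 in NR mice only (58.6%, 14.8% and 26.6%). For the 115 members in exactly 2 mice the shares were 54.8%, 16.5% and 28.7%. Of the 21 pairs of mice, 12 joined an R with an NR mouse, 3 joined R mice and 6 NR mice (57.1%, 14.3% and 28.6%). In the shared class 187 of 232 CDR3s were in both groups, 14 in R mice only and 31 in NR mice only (80.6%, 6.03% and 13.4%). For the 145 of them in exactly 2 mice the shares were 71.0%, 8.28% and 20.7%. These counts are descriptions. Members made up 4.40%, 4.70% and 3.94% of the rearrangements of 1R, 2R and 3R (95% Wilson intervals 3.45 to 5.60, 3.41 to 6.44 and 2.94 to 5.27). In 4NR to 7NR they made up 4.11%, 5.14%, 4.80% and 4.69% (3.02 to 5.57, 3.91 to 6.73, 2.98 to 7.66 and 3.70 to 5.92). Intervals cover counting error only. The groups overlapped, at 4.35% ± 0.380 (n = 3) and 4.69% ± 0.428 (n = 4, two-sided exact permutation test over 35 divisions, p = 0.343). Of templates, members held 1.46% ± 0.377 in R and 1.33% ± 0.302 in NR (exact permutation test, p = 0.571). N insertions of members were 2.08 ± 0.264 and 1.97 ± 0.108 (exact permutation test, p = 0.571). With 3 and 4 mice this test cannot go below p = 0.0571, so this exact permutation test could not have passed 0.05 and does not show that R and NR were alike.

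The within-mouse differences from CDR3s of 1 mouse were also set side by side. The single-template difference was -16.8 ± 4.33 percentage points in R and -3.37 ± 6.76 in NR (exact permutation test, p = 0.0571, the smallest possible, adjusted p = 0.400 over 14 measures). The groups did not overlap, with R from -21.8 to -13.9 and NR from -9.41 to 3.44. The CDR3 length difference did not overlap either, at -0.23 ± 0.0386 residues in R, from -0.27 to -0.19, and -0.41 ± 0.0802 in NR, from -0.51 to -0.32 (exact permutation test, p = 0.0571, adjusted p = 0.400). The difference in N insertions was -1.47 ± 0.259 in R and -1.68 ± 0.153 in NR (exact permutation test, p = 0.229, adjusted p = 0.533).

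Between mice, each of the 21 pairs shared 2 to 19 members. Per 1000000 possible pairs of their CDR3s this was 3.58 to 24.8, with a median of 10.7. The shared class ranged more widely over the same pairs of mice, from 11.4 to 242, a range of 21.2-fold against 6.94-fold for members. The medians for members were 8.89 in pairs of R mice, 10.4 between R and NR and 13.7 in pairs of NR mice. As pairs share mice, these are descriptions.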

How the data were processed

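TCRβ rearrangements were amplified from genomic DNA of CD8 TILs on the immunoSEQ platform, 1 library per mouse. The authors deposited a table per mouse in which each nucleotide rearrangement has a template count, estimated by the provider from reads and not normalized. The deposited productive frequency is a fraction, the templates divided by all in-frame templates of the mouse. V, D and J names, N insertions and trimmed bases are the provider's assignments per the file headers, in bases. A genome build is not given in the sources used here, and the authors' overview table was not used.

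In-frame rearrangements were sorted into members, CDR3s of 1 mouse, and public CDR3s with a shared rearrangement. The members and lists were chosen with earlier results of these data known. Each rearrangement counted once. Class means per mouse were compared by a two-sided exact sign-flip permutation test (scipy 1.17.1, Python 3.11.15), Benjamini-Hochberg adjusted over 14 measures per comparison. Sensitivity was judged on the unadjusted p at 0.05. With a mouse left out or at least 2 templates required, the classes were formed anew from what remained. At 2 or more templates this gave 51 member CDR3s with 122 rearrangements. R and NR were compared by exact permutation over 35 divisions. V and J genes with 10 or more rearrangements were tested with edgeR 4.0.16 (R 4.3.3), TMM, a common dispersion and the mouse as a block, with DESeq2 1.42.0 as an alternative. The tests were checked on simulated data in which the mice were drawn independently, so the check does not cover CDR3s shared between mice. Rearrangements with an ambiguous V gene (13, of which 1 a member) were left out of the gene tests. Depth limited the search, since 1 template was the unit of detection and 2332 to 15182 templates were read per mouse.

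CDR3s named in the text are those in 4 or more mice, the 10 with the highest frequency in a mouse, and the 3 with the most and the 3 with the fewest differing bases. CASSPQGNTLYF and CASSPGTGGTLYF were also picked as the members with 2 J genes, after their values were seen. Genes named are those with adjusted p under 0.05 and the 3 most used. Nothing in the sources says that R and NR mice of the same replicate number belong together. Their deviations in V gene use correlated at 0.0414, -0.293 and -0.0132, so the numbers were not used as pairs.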

Additional observations from a re-analysis of the deposited data

Results flagged for a closer look

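In the 4 NR mice, the difference in N insertions between members and CDR3s of 1 mouse was -1.45 in 7NR, while the other 3 lay between -1.77 and -1.74. The gap from 7NR to its nearest neighbour took 0.903 of the whole range, above Dixon's 95% critical value for 4 samples. Of 17 groups of values screened in this way it was the only one, and chance marks about 1 in 20 such groups. In 7NR members had 1.97 N insertions, close to the mean of 2.02, and CDR3s of 1 mouse had 3.42, the lowest of the 7 mice.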

How the results depend on the processing

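The lower number of N insertions against CDR3s of 1 mouse passed an unadjusted exact p of 0.05 in all alternatives, from -1.61 to -1, and from -1.70 to -1.43 when each mouse was left out. So did the share beginning with CASS (14.96 to 26.5, and 17.1 to 23.0 over mice left out), a start that the definition favours. The share without N insertions and V trimming kept their direction but lost the call under the settings given beside them. Against CDR3s of 1 mouse, the length difference was -0.23 at 2 or more templates, -0.20 weighted by templates and -0.14 as a median, none past 0.05 (leave-one-out -0.39 to -0.23, all past it). The single-template difference was -16.5 with the V and J gene required to match, past 0.05, and -12.8 to -7.05 over mice left out, past it only without 7NR. Log2 templates were 0.16 without members 1 base apart, 0.57 with members counted once, 0.43 as a median and 0.19 within length, none past 0.05, and -0.34 weighted by templates (leave-one-out 0.21 to 0.32). The TCRBD01-01 difference was -7.95 at 2 or more templates, -7.49 without members 1 base apart and -10.7 with members counted once, none past 0.05 (leave-one-out -14.0 to -7.87). The TCRBJ02 difference passed 0.05 at 2 or more templates (16.8), weighted (13.5) and without 4NR or 6NR (leave-one-out 4.19 to 10.03). J trimming was 0.0186, the other way, at 2 or more templates.

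Against the shared class, N insertions were 0.0854 weighted and -0.57 as a median, neither past 0.05 (leave-one-out -0.78 to -0.52). The single-template difference was 9.04 without members 1 base apart and 19.9 weighted, both past 0.05, and -4.65 with members counted once (leave-one-out 3.13 to 9.12).

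The number of V genes called was 5, 0 by the sign-flip test and 1 to 5 over mice left out (1 without 5NR, 2 without 3R, 3 without 1R or 7NR). For J genes it was 4, 2 by DESeq2 (1 higher, 1 lower), 1 with members counted once, 0 by the sign-flip test, 7 at 2 or more templates (all lower) and 2 to 5 over mice left out (2 without 1R). Without TMM scaling the median over the 24 V genes moved by 0.25 on the log2 scale, and 4 V genes were called. TCRBV12-01 was called in 4 of 14 alternative fits, TCRBJ02-07 in 11, TCRBV13-02 in 11, TCRBV20-01 in 13, TCRBV31-01 in 7, TCRBJ01-04 in 8 and TCRBJ01-06 in 6. At 2 or more templates fitted log2 fold changes turned negative for TCRBJ02-07 (-0.0155), TCRBV12-01 (-0.0823), TCRBJ01-01 (-0.48), TCRBJ02-01 (-0.98), TCRBV12-02 (-1.77) and TCRBV16-01 (-0.64). These signs depend on the TMM scaling, and the pooled share of TCRBJ02-07 in this setting was higher in members, 63.9% against 39.3%. With members counted once, the fitted values turned negative for TCRBJ01-01 (-0.0941), TCRBJ02-01 (-0.33), TCRBV12-02 (-0.17), TCRBV16-01 (-0.57) and TCRBV19-01 (-0.28). With the V and J gene required to match they did for TCRBJ02-01 (-0.48), TCRBV12-02 (-0.42) and TCRBV16-01 (-2.14). Without members 1 base apart they did for TCRBJ01-01 (-0.0382) and TCRBV19-01 (-0.49), and by DESeq2 for TCRBV16-01 (-0.0948). Over mice left out the ranges were -0.0454 to 0.382 for TCRBJ01-01, -0.23 to 0.43 for TCRBJ02-01, -0.00835 to 0.412 for TCRBV12-02, -0.54 to 0.33 for TCRBV16-01 and -0.13 to 0.61 for TCRBV19-01.

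R minus NR ranged from -0.94 to 0.54 percentage points of rearrangements (above 0 without 5NR), -4.16 to 0.65 of templates (below 0 without 1R, 2R, 6NR or 7NR) and -0.0445 to 0.134 N insertions (below 0 without 3R). Without 1R a CDR3 of 531 templates (10.5% of its mouse) became a member, because its shared rearrangement had been seen in 1R. As an alternative, R and NR mice were paired by replicate number (replicate block), giving -0.338 and 0.0588 percentage points and 0.1004 N insertions (exact sign-flip p = 0.5, 1 and 0.5), with no call changed. The cause of these changes was not tested. Membership rests on detection in a second mouse, so a deeper library can move a CDR3 of 1 mouse into the members, and a rearrangement of a member into the shared class.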
